A study of Mus musculus with 6 samples.

Results

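The 33 genes described here are markers of T cells and natural killer (NK) cells measured in inguinal fat, a white fat depot under the skin of the mouse groin. Members were the rows of the deposited table whose Ensembl identifiers map to a list of 33 symbols, out of 25894 rows in all. All 33 were found, and all 33 had a mean value of at least 1, the minimum for testing. RNA sequencing was run on inguinal fat of 6 female C57BL/6N mice, 15 weeks old, and each library came from 1 mouse that had been fasted for 10 h. The 3 mice of the SF 8w-SR 2w group had 8 weeks of sleep fragmentation followed by 2 weeks of sleep recovery, and are called fragmented, recovered 1 to 3. The 3 mice of the Control group are called control 1 to 3, and the labels give no genetic change in either group. The comparison asks which lymphocyte transcripts in fat differed from controls after the recovery period. The series has no group sampled before recovery, so persistence of a difference cannot be addressed.

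T cells recognise antigen through a receptor made of clonal alpha and beta chains and the invariant CD3 chains, which pass the signal to the kinases Lck and Zap70 and the adaptor Lat. Naive T cells circulate through lymph nodes, entering by the chemokine receptor Ccr7 and through high endothelial venules. NK cells carry no T cell receptor and kill targets with granule proteins such as granzymes. Inguinal fat holds resident T, NK and other innate lymphoid cells between its adipocytes, and a lymph node lies inside the depot. In bulk tissue, fewer cells of a type and less RNA per cell cannot be told apart.

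The deposited values are reads scaled by a size factor, called normalised values here, and the recovered reads ranged from 15610201 to 19703569 per library. Adipocyte markers were high in all 6 libraries but not equal, with Fabp4, a fatty acid carrier of adipocytes, between 41622 and 208560. The 8 adipocyte markers summed to 547080, 297250 and 272910 in the fragmented, recovered mice and 409120, 139630 and 175440 in the controls. Controls 2 and 3 were the lowest libraries for 5 of the 8. Markers of other cells set some libraries apart before any member is considered. B and plasma cell markers, 19 genes, summed to 5290, 41625 and 4081 in fragmented, recovered 1, 2 and 3, against 3441, 100620 and 29106 in controls 1, 2 and 3. Lymph node stroma markers, 8 genes, summed to 669, 6199 and 89.4 in the fragmented, recovered mice and 133, 4811 and 1970 in the controls. Glycam1, a ligand made by high endothelial venules of lymph nodes and also by mammary gland, had 5484 in fragmented, recovered 2, against 1968 and 402 in controls 2 and 3, and 0 reads in the other libraries. A count of 0 allows up to 3 reads, a normalised value of 3.11, 2.71 and 3.20 in fragmented, recovered 1 and 3 and control 1. Of the 8 stroma markers, 2 (Glycam1 and Chst4) were highest in the same 3 libraries. Cxcl13, a chemokine of B cell follicles, had 591, 467 and 19.0 in the fragmented, recovered mice and 18.1, 2356 and 1424 in the controls. Madcam1, an addressin, had 30.1, 34.1 and 16.3 in the fragmented, recovered mice and 45.8, 49.7 and 72.4 in the controls. Madcam1, Chst4, Ccl21a and Ccl19 are not among the 3 highest means of this list and are named after their values were seen. The chemokines of this list that draw T cells, Ccl21a and Ccl19, were at or near 0, with at most 18 reads in a library, and at 0 in control 3. Whether their reads were lost to sequence shared with other genes was not tested. Fragmented, recovered 2 and controls 2 and 3 were thus the 3 libraries highest in the summed B and plasma cell markers, the summed stroma markers and Glycam1. They are called lymphoid-high here, 1 fragmented, recovered mouse and 2 controls. Glycam1 is part of the stroma sum and supplied 5484 of the 6199 in fragmented, recovered 2, so these 2 are not separate measures. Cxcl13, of the same list, was higher in fragmented, recovered 1 than in fragmented, recovered 2. The group differences of the members are given below with and without these 3 libraries.

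**Figure D1:**
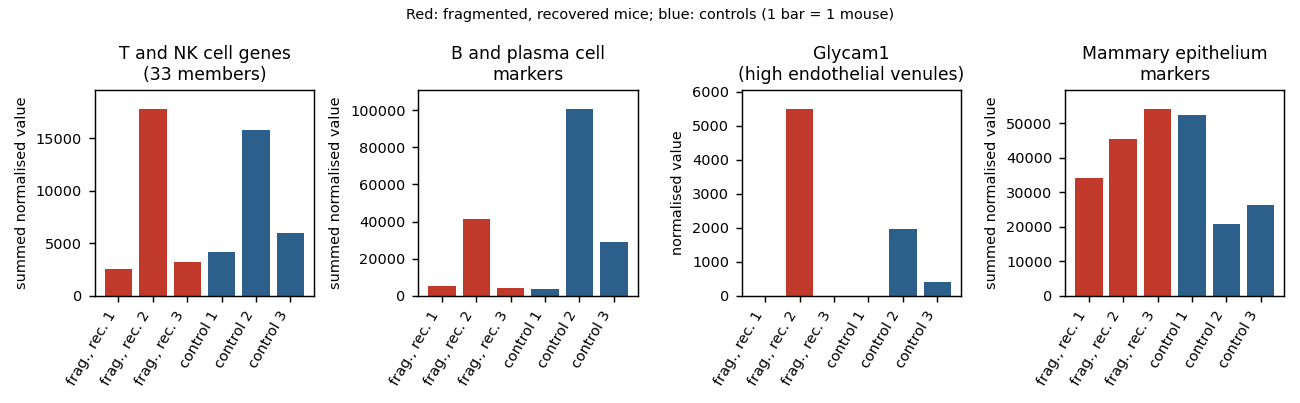
Bars give normalised values (linear axis from 0) in each mouse, red for fragmented, recovered and blue for control, summed over 33 T and NK cell genes, 19 B and plasma cell markers and 11 mammary epithelium markers, with Glycam1 alone in the third panel. The first 3 panels are highest in fragmented, recovered 2, control 2 and control 3, and the mammary panel is lowest in controls 2 and 3.

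Summed over all members, T and NK cell genes had normalised values of 2560, 17775 and 3169 in fragmented, recovered 1, 2 and 3, against 4181, 15811 and 5987 in controls 1, 2 and 3. The groups overlapped, and fragmented, recovered 2 and control 2 stood above the rest. Gata3 and Thy1 supplied 52.6%, 15.5% and 56.8% of these sums in the fragmented, recovered libraries and 53.6%, 8.12% and 17.8% in the controls. The other 31 members summed to 1214, 15012 and 1371 in fragmented, recovered 1, 2 and 3, against 1941, 14527 and 4918 in controls 1, 2 and 3. As a share of all reads, the 33 members took 0.0135%, 0.119% and 0.0191% in the fragmented, recovered libraries and 0.0230%, 0.0896% and 0.0316% in the controls. For these sums, the spread between mice of 1 group exceeded the difference between the group means.

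For 25 of the 33 members, fragmented, recovered 2, control 2 and control 3 were the 3 highest libraries, an order that 10.8% of all 22290 genes tested showed. The same order held for 18 of 19 B and plasma cell markers. The 8 members without it were Cd3g, Cd2, Thy1, Gata3, Nkg7, Gzma, Gzmb and Ncr1. The highest library was fragmented, recovered 2 for 22 members, control 2 for 10 and control 1 for Gata3. Among B and plasma cell markers it was fragmented, recovered 2 for 2 genes and control 2 for 16.

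**Figure D2:**
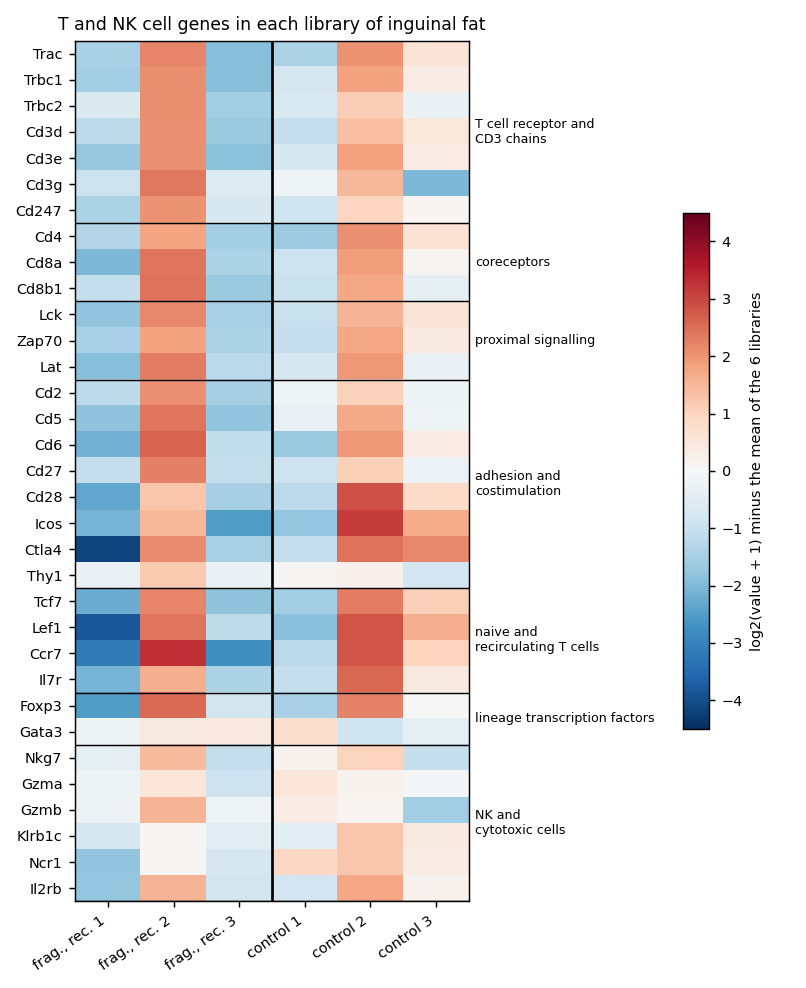
Rows are the 33 members grouped by role and columns the 6 libraries. Colour is log2(value + 1) minus the member's mean over the 6 libraries, from blue (below) to red (above). Most rows are red in fragmented, recovered 2 and control 2, while Gata3, Thy1 and several NK cell genes are pale.

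The chains of the T cell receptor come first. Trac, the constant part of the alpha chain, had 52.9, 675 and 37.9 in fragmented, recovered 1, 2 and 3, against 53.3, 588 and 216 in controls 1, 2 and 3. Cd3e, an invariant signalling chain, had 27.0, 379 and 24.4 in the fragmented, recovered mice and 53.3, 313 and 117 in the controls. Cd3d, its partner, had 43.5, 420 and 30.7 in the fragmented, recovered mice and 48.0, 254 and 138 in the controls. In each of these 3 genes the groups overlapped, with fragmented, recovered 2 highest and fragmented, recovered 3 lowest. Cd3g, the gamma chain, broke the pattern in a single library: it had 38.4, 399 and 48.8 in the fragmented, recovered mice and 66.1, 209 and 17.8 in the controls. Control 3 thus had 16 reads of Cd3g beside 124 of Cd3d and 105 of Cd3e. Cd247, the zeta chain, had 31.1, 354 and 51.5 in the fragmented, recovered mice and 45.8, 168 and 91.3 in the controls. Its reads are uncertain, because 84.0% of the 50-base windows in its longest annotated transcript also occur, on either strand, in Pou2f1 or another gene.

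The beta chain has a pair of near-identical constant genes. Trbc1 had 37.3, 465 and 28.0 in the fragmented, recovered mice and 63.9, 390 and 138 in the controls. Trbc2 had 92.3, 621 and 47.9 in the fragmented, recovered mice and 90.6, 315 and 117 in the controls. Of their 50-base windows, 41.1% of Trbc1 and 44.0% of Trbc2 are shared, so the counting could split their reads. The ratio of Trbc1 to Trbc2 was 0.404, 0.748 and 0.585 in the fragmented, recovered mice and 0.706, 1.24 and 1.18 in the controls. The groups overlapped through control 1, and the exact permutation test over mice gave p = 0.2 (two-sided, adjusted p = 0.8 over 8 ratios).

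The promoters of the 3 neighbouring CD3 genes are shown because Cd3g departed from Cd3d and Cd3e in control 3, and those of Ncr1 and Gata3 because these members did not follow the T cell order of libraries. RefSeq promoter entries (build GRCm38.p6) matched 21 of the 33 members by symbol, and the 250 bases before the annotated start are used. The windows are chr9:44981536-44981785 on the plus strand for Cd3d, chr9:44980432-44980681 on the minus strand for Cd3g, and chr9:45009612-45009861 on the minus strand for Cd3e. For Ncr1 the window is chr7:4337465-4337714 on the plus strand, and for Gata3 it is chr2:9878601-9878850 on the minus strand. Capitals mark matches, on either strand, to short cores of factor families that act in lymphocytes, none of which contains another. The core searched for RUNX factors was TGTGGT, and the core for ETS factors was GGAAG. The search for GATA factors used AGATAA, while TCF/LEF factors were represented by CTTTGA. For T-box factors the letters searched were GGTGTG.
Cd3d: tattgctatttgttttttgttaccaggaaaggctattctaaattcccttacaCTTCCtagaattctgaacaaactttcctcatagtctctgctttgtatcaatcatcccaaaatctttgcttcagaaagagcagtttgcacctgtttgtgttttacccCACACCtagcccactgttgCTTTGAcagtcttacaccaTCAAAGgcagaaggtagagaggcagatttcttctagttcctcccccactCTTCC
Cd3g: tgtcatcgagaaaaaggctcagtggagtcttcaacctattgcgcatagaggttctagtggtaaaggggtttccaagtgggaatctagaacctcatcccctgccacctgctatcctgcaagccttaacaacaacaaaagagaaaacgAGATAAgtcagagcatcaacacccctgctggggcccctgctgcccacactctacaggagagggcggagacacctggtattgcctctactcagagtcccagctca
Cd3e: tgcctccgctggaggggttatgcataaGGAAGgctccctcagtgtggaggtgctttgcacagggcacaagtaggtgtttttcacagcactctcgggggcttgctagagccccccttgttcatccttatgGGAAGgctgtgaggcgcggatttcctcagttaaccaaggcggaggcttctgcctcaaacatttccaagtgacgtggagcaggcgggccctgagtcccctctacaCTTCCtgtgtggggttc
Ncr1: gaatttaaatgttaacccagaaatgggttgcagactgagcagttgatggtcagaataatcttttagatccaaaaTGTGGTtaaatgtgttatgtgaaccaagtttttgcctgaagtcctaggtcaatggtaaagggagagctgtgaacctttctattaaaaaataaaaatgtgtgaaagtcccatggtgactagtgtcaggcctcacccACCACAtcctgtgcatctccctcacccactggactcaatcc
Gata3: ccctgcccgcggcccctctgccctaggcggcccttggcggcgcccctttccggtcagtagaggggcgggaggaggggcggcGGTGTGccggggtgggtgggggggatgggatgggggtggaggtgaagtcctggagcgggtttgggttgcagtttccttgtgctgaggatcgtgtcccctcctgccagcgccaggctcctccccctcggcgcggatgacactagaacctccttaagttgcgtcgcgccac
Cd3d held 2 ETS, 2 TCF/LEF and 1 T-box match, Cd3g 1 GATA match, Cd3e 3 ETS matches, Ncr1 2 RUNX matches and Gata3 1 T-box match. The RUNX core was in 6 of the 21 members with an entry (28.6%), against 14.2% of 27025 genes. The ETS core was in 16 of 21 (76.2%), against 63.6% of all genes, and the GATA, TCF/LEF and T-box cores were in 1, 2 and 3 of 21, against 10.2%, 14.1% and 16.2%. These are matches of letters in 1 window per gene, not binding sites. The windows are reference sequence, the same for all libraries, and a link to differences between libraries was not tested.

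Coreceptors mark the helper and cytotoxic lineages. Cd4, of helper and regulatory T cells, had 88.1, 752 and 74.9 in fragmented, recovered 1, 2 and 3, against 69.3, 921 and 344 in controls 1, 2 and 3. Cd8a, of cytotoxic T cells, had 44.6, 988 and 69.5 in the fragmented, recovered mice and 94.9, 696 and 201 in the controls. Fragmented, recovered 2 and control 2 were the 2 highest libraries for both genes, in opposite order. The ratio of Cd4 to Cd8a was 1.98, 0.761 and 1.08 in the fragmented, recovered mice and 0.730, 1.32 and 1.72 in the controls, and the groups overlapped fully. Its mean log2 was 0.23 ± 0.69 in fragmented, recovered mice and 0.24 ± 0.63 in controls (SD, n = 3 each), a difference of -0.02 (exact permutation test, two-sided, p = 1). Cd8b1, the beta chain of the CD8 pair, had 60.1, 706 and 39.7 in the fragmented, recovered mice and 62.9, 428 and 94.7 in the controls.

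The proximal signalling genes followed the same order of libraries. Lck, the kinase bound to the coreceptors, had 70.5, 1101 and 89.4 in the fragmented, recovered mice and 122, 709 and 370 in the controls. Zap70, the kinase recruited to the CD3 chains, had 30.1, 302 and 30.7 in the fragmented, recovered mice and 40.5, 288 and 111 in the controls. Lat, the adaptor that Zap70 phosphorylates, had 30.1, 581 and 49.7 in the fragmented, recovered mice and 66.1, 448 and 91.3 in the controls. All 3 genes were highest in fragmented, recovered 2, then in control 2 and then in control 3.

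Among adhesion and costimulatory receptors, Cd28 and Icos stood out by their level in control 2. Cd28, the main costimulatory receptor of naive T cells, had 24.9, 312 and 46.0 in the fragmented, recovered mice and 57.6, 978 and 238 in the controls. Icos, an inducible relative of Cd28, had 19.7, 250 and 14.4 in the fragmented, recovered mice and 25.6, 780 and 282 in the controls. Fragmented, recovered 2 had 0.319-fold the Cd28 and 0.320-fold the Icos of control 2, whereas it had 1.21-fold the Cd3e. Ctla4, the inhibitory receptor of the same family, had 0, 101 and 6 reads in the fragmented, recovered mice and 7, 84 and 71 reads in the controls. Cd28, Icos and Ctla4 had limma log2 differences of -1.72 (SE 1.08), -2.07 (SE 1.30) and -2.34 (SE 1.51), and none passed the threshold (adjusted p from 0.697 to 0.698).

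Cd2, Cd5, Cd6 and Cd27, receptors that tune adhesion, signalling and survival of T cells, were each highest in fragmented, recovered 2, at 372, 329, 382 and 291. In the other fragmented, recovered libraries they lay between 12.4 and 39.4, and in the controls between 18.1 and 235. Thy1, a surface protein of mouse T cells and also of fibroblasts, was abundant everywhere: it had 544, 1535 and 543 in the fragmented, recovered mice and 693, 787 and 366 in the controls. Its highest library was 4.19-fold its lowest, against 15.5-fold for Cd3e. The ratio of Thy1 to Cd3e was 20.2, 4.06 and 22.3 in the fragmented, recovered mice and 13.0, 2.51 and 3.13 in the controls (exact permutation test on the log2 ratio, p = 0.2, adjusted p = 0.8).

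Among genes of naive and recirculating T cells, Lef1 and Ccr7 had the widest spread of the 32 members with a ratio of highest to lowest, 132-fold and 94.7-fold, while Il7r (26.5-fold) and Tcf7 (23.8-fold) spread less than Icos (54.0-fold) and Foxp3 (49.8-fold). Ccr7, the receptor that guides cells into lymph nodes, had 10.4, 982 and 13.5 in the fragmented, recovered mice and 41.6, 701 and 198 in the controls. Lef1, a transcription factor of naive T cells, had 3, 404 and 28 reads in the fragmented, recovered mice and 14, 363 and 163 reads in the controls. Tcf7, its close relative, had 65.3, 1427 and 88.5 in the fragmented, recovered mice and 106, 1556 and 655 in the controls. Il7r, the interleukin 7 receptor that maintains naive and memory T cells, had 70.5, 958 and 113 in the fragmented, recovered mice and 144, 1865 and 402 in the controls. By limma, these 4 genes had the most negative median of any role group, -1.50 on the log2 scale, with 4 of 4 below 0. Their groups overlapped. On recovered reads, edgeR put 3 of 4 below 0, with a median of -0.62, and Ccr7 at 0.19. Of all genes tested, 48.4% were below 0 by limma and 48.2% by edgeR. The ratio of Ccr7 to Cd3e was 0.385, 2.59 and 0.556 in the fragmented, recovered mice and 0.780, 2.24 and 1.70 in the controls. It was above 1 in the 3 lymphoid-high libraries and below 1 in the other 3, and the groups overlapped (exact permutation test, p = 0.5, adjusted p = 0.8).

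The lineage transcription factors were unlike each other. Foxp3, which defines regulatory T cells, had 2, 136 and 10 reads in the fragmented, recovered mice and 5, 72 and 15 reads in the controls. The ratio of Foxp3 to Cd4 was 0.0235, 0.137 and 0.120 in the fragmented, recovered mice and 0.0769, 0.0883 and 0.0485 in the controls, with overlapping groups (exact permutation test, p = 0.8, adjusted p = 0.914). The low end of this ratio rests on the 2 Foxp3 reads of fragmented, recovered 1, and 13.9% of the 50-base windows of Foxp3 also occur in Ccdc22 or another gene. Gata3, a factor of helper type 2 cells and innate lymphoid cells that luminal mammary epithelium also uses, had 801, 1228 and 1256 in the fragmented, recovered mice and 1548, 497 and 702 in the controls. It was lowest in controls 2 and 3. Mammary epithelium markers, 11 genes, summed to 34249, 45526 and 54124 in the fragmented, recovered mice and 52424, 20829 and 26367 in the controls. Controls 2 and 3 were the 2 lowest libraries for 8 of the 11, including Krt19, a keratin of that epithelium, but not for Prlr, Esr1 and Elf5. Krt19 had 6285, 9968 and 9891 in the fragmented, recovered mice and 10356, 1335 and 1743 in the controls. Prlr, a hormone receptor with the highest mean of the list, had 7737, 11072 and 18341 in the fragmented, recovered mice and 13681, 11347 and 14014 in the controls. Esr1, the oestrogen receptor, named like Elf5 after its values were seen, had 845, 882 and 1321 in the fragmented, recovered mice and 1140, 1081 and 2117 in the controls. The part of epithelium in the Gata3 values was not tested.

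**Figure D3:**
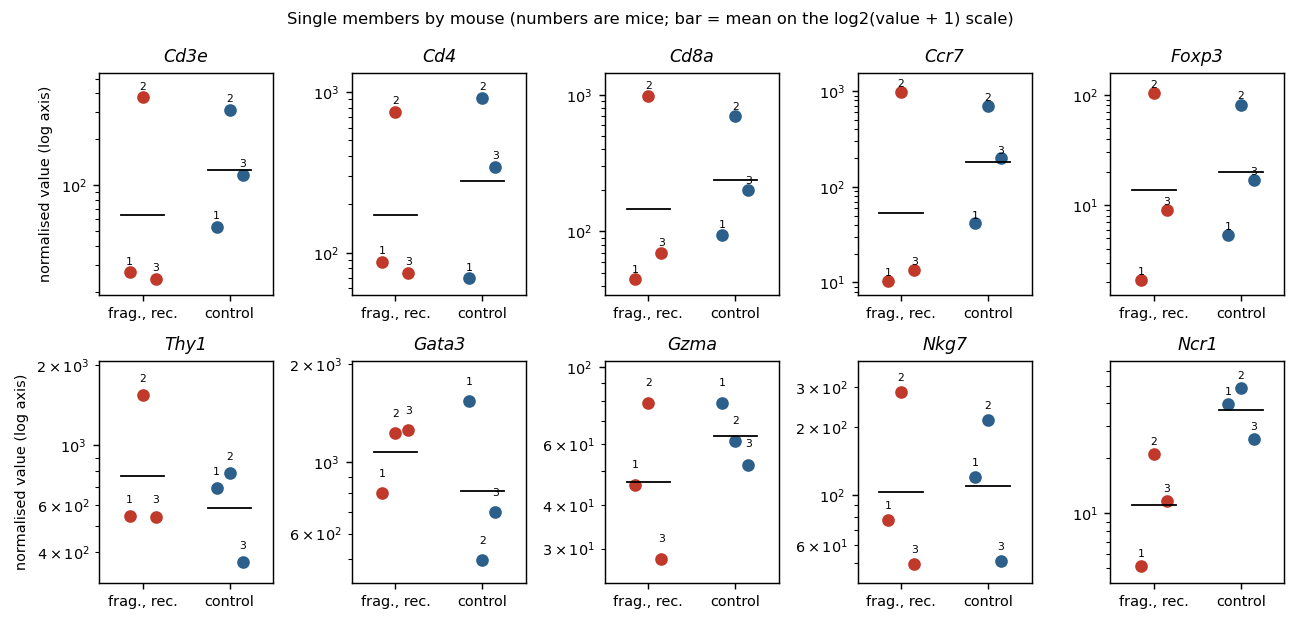
Points are normalised values of 10 members in each mouse on log axes, numbered by mouse, with fragmented, recovered mice at left and controls at right and bars at the group mean of log2(value + 1). Mouse 2 of each group is high for Cd3e, Cd4, Cd8a, Ccr7 and Foxp3, Gzma varies little, and for Ncr1 all 3 fragmented, recovered mice lie below all 3 controls.

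Of the NK and cytotoxic genes, Gzma, Klrb1c and Nkg7 varied less between libraries than most members. Gzmb, Ncr1 and Il2rb spread 9.36-fold, 9.38-fold and 11.3-fold from lowest to highest, beside 10.0-fold for Zap70. Gzma, a granzyme of NK cells and cytotoxic T cells, had 45.6, 78.9 and 28.0 in fragmented, recovered 1, 2 and 3, against 78.9, 61.0 and 52.4 in controls 1, 2 and 3. Its spread of 2.82-fold from the lowest to the highest library was the narrowest of the members, for which a ratio could be formed in 32 of 33. Gzmb, another granzyme, had 23, 110 and 27 reads in the fragmented, recovered mice and 34, 27 and 8 reads in the controls. Nkg7, a protein of cytotoxic granules, had 77.8, 286 and 49.7 in the fragmented, recovered mice and 120, 215 and 51.2 in the controls. The ratio of Nkg7 to Cd3e was 2.88, 0.756 and 2.04 in the fragmented, recovered mice and 2.26, 0.686 and 0.438 in the controls, above 1 in the other 3 libraries (exact permutation test between groups, p = 0.4, adjusted p = 0.8).

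Ncr1, which encodes the NK cell receptor NKp46, was the only member whose groups did not overlap. It had 5, 28 and 13 reads in the fragmented, recovered mice and 37, 43 and 23 reads in the controls, or 12.7 ± 8.07 in fragmented, recovered mice and 37.9 ± 11.6 in controls as normalised values (SD, n = 3 each). All 3 fragmented, recovered mice lay below all controls for 1 of 33 members, against 3.58% of all genes tested, and all 3 lay above for 0 of 33, against 5.02%, so the members' share was near the background. The limma log2 difference of Ncr1 was -1.64 (SE 0.69, unadjusted p = 0.0397), and it did not pass (adjusted p = 0.697 by limma, 0.768 by edgeR and 0.872 by DESeq2). Over the 12 alternatives run for single members the difference stayed between -2.19 and -1.16, with adjusted p-values from 0.26 to 1. Klrb1c, which encodes NK1.1, had 21, 51 and 29 reads in the fragmented, recovered mice and 25, 79 and 45 reads in the controls, and 18.1% of its 50-base windows are shared with another gene. Il2rb, a receptor chain for interleukins 2 and 15 on NK cells and activated T cells, had 102, 972 and 190 in the fragmented, recovered mice and 187, 1144 and 373 in the controls. Il2rb followed the order of the T cell genes, as 25 of the 33 members did.

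Levels can be compared between genes only per length. Per kilobase of the longest GENCODE M21 transcript, Thy1 had the highest mean normalised value of the members, 429, and Foxp3 the lowest, 9.46. Gata3 had 313, Trbc2 309, Trac 289 and Tcf7 263 per kilobase, above Cd4 at 121, Cd8a at 112 and Cd3e at 59.7. Over 6 libraries that differ up to 132-fold for a member, this order describes the mean only.

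Between the groups, no member passed the threshold. limma on log2(value + 1) was fitted to 22290 genes with Benjamini-Hochberg adjustment, and it called 0 of 33 members at a false discovery rate of 0.05, against 0.0% of all genes. The lowest adjusted p of a member was 0.697, and 1 member, Ncr1, had an unadjusted p under 0.05, against 5.39% of all genes. On the recovered reads, edgeR called 0 members and DESeq2 called 0, although 4 members (Cd8b1, Lat, Cd2 and Cd5) got no adjusted p from DESeq2. At an unadjusted p under 0.05 there were 0 members by edgeR, against 4.57% of all genes, and 1 by DESeq2, against 5.61%. Log2 differences were below 0 for 28 members and above 0 for Cd3g, Cd27, Thy1, Gata3 and Gzmb, against 48.4% of all genes below 0. The median over the members was -0.69, against 0.02 over all genes, and the members' SEs ran from 0.40 for Gata3 to 1.59 for Ccr7.

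That direction depended on the scale and on single mice. edgeR, which compares fitted mean counts and not means of logarithms, put 15 members below 0 and 18 above, with a median of 0.16, against 48.2% of all genes below 0. DESeq2 also put 15 below 0, with a median of 0.10, against 49.8% of all genes. For Lck the limma log2 difference was -0.73 (SE 0.98) and edgeR's was 0.15. The mean values were 420 ± 589 in fragmented, recovered mice and 400 ± 295 in controls (SD, n = 3 each). The members' limma median was -1.83 without fragmented, recovered 2 and -1.35 without control 1. It was -0.06, -0.12, 0.01 and -0.67 without fragmented, recovered 1, fragmented, recovered 3, control 2 and control 3. At an unadjusted limma p under 0.05 there were 13 of 33 members without fragmented, recovered 2, against 3.55% of all genes. There were 3 without control 1 (24.4% of all genes), 1 without control 3 (2.01%) and 0 without each other mouse. None of these fits called a member, although the fit without control 1 called 844 genes in all, 3.79% of those tested, of which 281 were lower (1.26%) and 563 higher (2.53%).

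**Figure D4:**
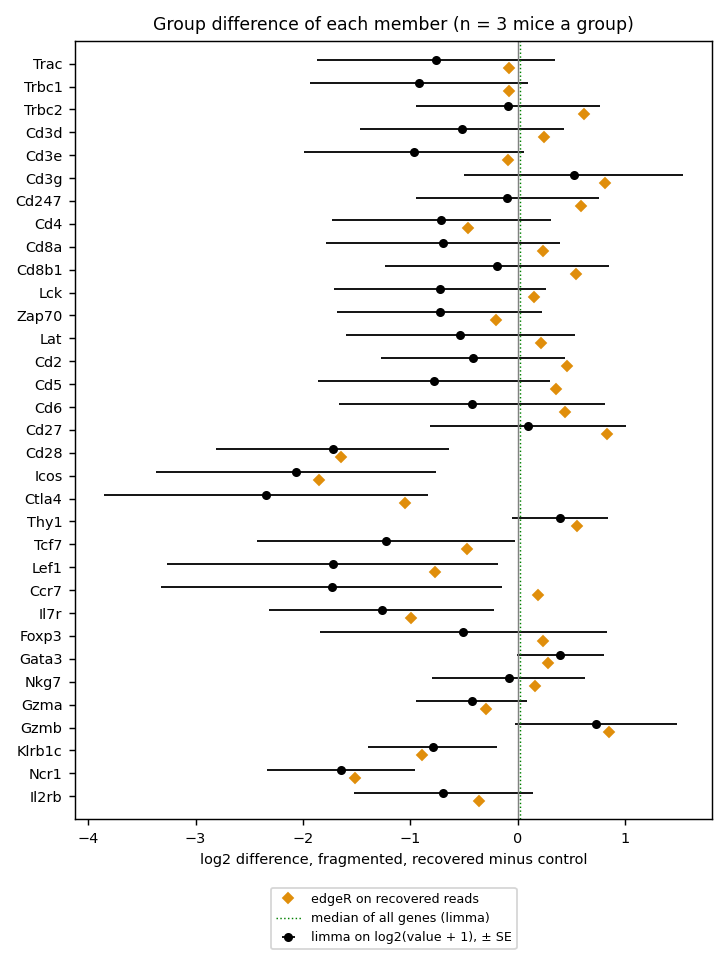
Points are log2 differences, fragmented, recovered minus control, for each of the 33 members, in black from limma on log2(value + 1) with bars of 1 SE and in orange from edgeR on recovered reads; the dotted line is the limma median of all genes. Black points lie left of 0 for 28 members and orange points for 15.

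Without the 3 lymphoid-high libraries, fragmented, recovered 1 and 3 were set against control 1 alone, which is assumed to vary like the others. There 31 of 33 members were below 0, with a median of -0.60, and 0 passed (limma adjusted p of 1 for each). Cd3e had 27.0 and 24.4 in those fragmented, recovered mice and 53.3 in control 1, and Ccr7 had 10.4 and 13.5 in the fragmented, recovered mice and 41.6 in control 1. Cd4 went the other way, with 88.1 and 74.9 in the fragmented, recovered mice and 69.3 in control 1. The libraries of each group highest in skeletal muscle markers were fragmented, recovered 1 (75962 summed over 8 markers) and control 2 (9778). Without them the members' median was 0.58, against 0.07 over all genes, with 28 of 33 above 0 and 0 passing. They also had the lowest member sum of the fragmented, recovered mice (2560) and the highest of the controls (15811). The part of muscle content in this median was not tested.

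Fragmented, recovered 2 and control 2, the libraries with most T cell transcripts, were compared gene by gene with no test, as 1 mouse each. Of the 33 members, 23 were higher in fragmented, recovered 2 and 10 higher in control 2. The log2 of fragmented, recovered 2 over control 2 ran from -1.65 for Cd28 to 1.42 for Gzmb, with a median of 0.38. Icos (-1.64), Klrb1c (-1.19), Ncr1 (-1.16) and Il7r (-0.96) were at the low end with Cd28, and Gata3 (1.30), Cd27 (1.20) and Cd247 (1.07) at the high end with Gzmb. Across the 33 members this log2 ratio had a Spearman rho of 0.30 with the GC content and -0.34 with the length of the longest transcript, which describes genes of the same 2 libraries. Across all genes with a known GC content, the deviation of a library had a rho on GC content of 0.16, 0.37 and 0.13 in fragmented, recovered 1, 2 and 3, against 0.13, -0.27 and -0.27 in controls 1, 2 and 3. The part of GC content in the members' order was not tested.

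The ratio of Gata3 to Cd3e was 29.7, 3.24 and 51.5 in the fragmented, recovered mice and 29.0, 1.59 and 6.00 in the controls (exact permutation test on the log2 ratio, p = 0.5, adjusted p = 0.8). Of the 7 ratios reported, 7 had overlapping groups and 0 passed, with p-values adjusted over the 8 that were tested. With 3 mice against 3, the exact test cannot give a p under 0.1.

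**Figure D5:**
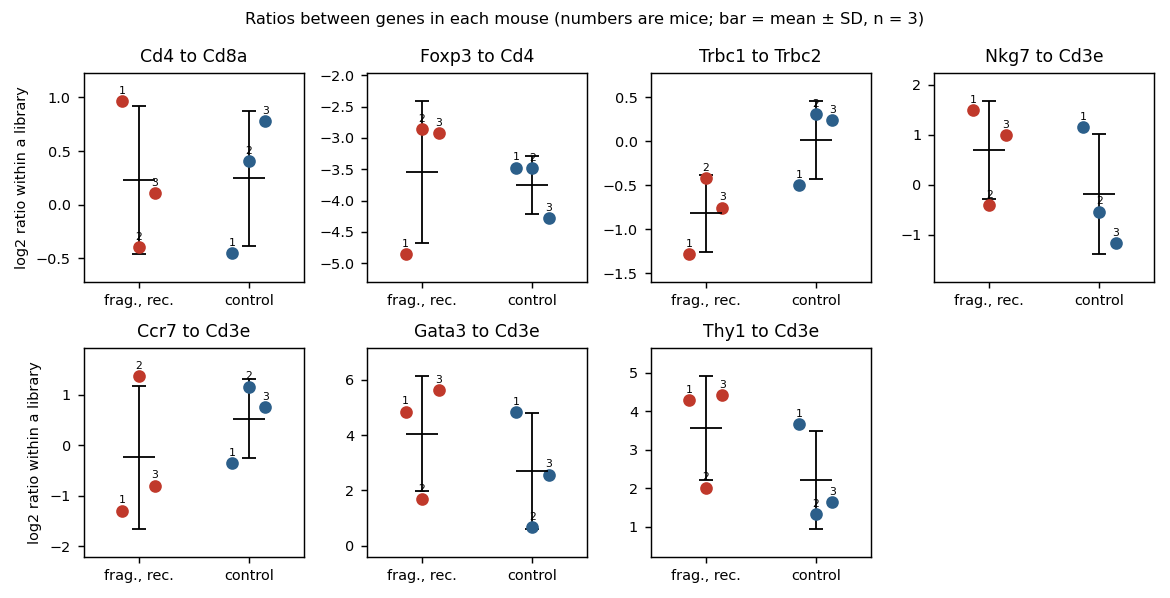
Points are log2 ratios between a pair of genes within each mouse, with 1 added to each value, and black bars are the group mean ± SD (n = 3), fragmented, recovered at left and control at right. Groups overlap in 7 of 7 panels, and the controls' Trbc1 to Trbc2 ratios run from -0.50 in control 1 to 0.31 in control 2.

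In a list of 50 other T and NK cell genes, limma called 0 of 50 at the threshold, against 0.0% of all genes. It put 41 below 0 and 9 above with a median of -0.62, against 48.4% of all genes below 0. edgeR put 32 of 50 below 0 with a median of -0.19, and DESeq2 35 with -0.25, against 48.2% and 49.8% of all genes. Each called 0, with 0 and 1 genes under 0.05 before adjustment, against 4.57% and 5.61% of all genes. S1pr1, a receptor for exit from lymph nodes that endothelium also carries, had 3107, 2730 and 3135 in the fragmented, recovered mice and 2389, 3476 and 3495 in the controls, a log2 difference of -0.04 (SE 0.24). Zbtb16, a factor of innate-like T cells found in other tissues too, had 1631, 1017 and 2151 in the fragmented, recovered mice and 1847, 548 and 903 in the controls, a difference of 0.65 (SE 0.44). Zbtb7b, a factor of helper T cells, was the only gene of the 50 under 0.05 before adjustment by limma, against 5.39% of all genes. Its limma adjusted p was 0.697 (log2 difference 0.63, SE 0.27). Zbtb7b is named after its values were seen: they were 1350, 1570 and 1260 in the fragmented, recovered mice and 1283, 766 and 732 in the controls. Zbtb7b was lowest in controls 2 and 3, where Cd4 had 921 and 344, against 69.3 in control 1. It was highest in fragmented, recovered 2, where Cd4 had 752. The cell source of the Zbtb7b values was not tested. For 28 of the 50 genes, fragmented, recovered 2, control 2 and control 3 were the 3 highest libraries, against 25 of the 33 members and 10.8% of all genes. On recovered reads the medians of the 50 genes lay below 0 and those of the 33 members above 0, and the difference between the lists was not tested.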

How the data were processed

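RNA sequencing was done on inguinal fat of 6 mice, 3 a group, 1 library a mouse. Per the submitters' processing notes, featureCounts 1.5.0-p3, HISAT2 2.0.5 and CASAVA were used, and the build is named mm8; their settings, and whether counting used strand, are not given in the sources used here. The authors deposited a size-factor-scaled signal per Ensembl gene, 25894 in all. Every value was a whole multiple of the least nonzero value of its library (100%, tolerance 0.02), which gives the reads back. Symbols came from an identifier table, with 33 identifiers unmatched. Transcript length, GC content and shared 50-base windows came from GENCODE M21, and the only coordinates given are those of RefSeq promoter windows on GRCm38.p6, which were not joined to the mm8 values by position.

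limma 3.58.1 (R 4.3.3) with an intensity trend was fitted on the log2(value + 1) scale. The 22290 genes averaging 1 or more were tested, and p-values were adjusted over all of them by the Benjamini-Hochberg method, with a threshold of 0.05. Fold changes on this scale understate changes of low genes. The recovered reads were also tested with DESeq2 1.42.0 and with the quasi-likelihood test of edgeR 4.0.16. The scripts were checked on simulated data. Gene ratios were tested by exact permutation over mice (two-sided, scipy 1.17.1), adjusted over 8 ratios, of which 1 is not reported here. The alternatives were scaling, filters, pseudocount, tests, the replicate block, each mouse left out, and libraries high in other markers left out. All 33 members are named. Of other lists, the 3 genes highest in mean may be named, along with genes of a ratio. Members and lists were chosen with earlier results of these data known. The p-values measure the spread between mice. Intervals and floors cover counting error only.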

Additional observations from a re-analysis of the deposited data

How the results depend on the processing

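The count of 0 members past the threshold held under every alternative run: scaling, filters, pseudocount, edgeR, DESeq2, the replicate block, GC content and length trends removed, each mouse left out and both sets of libraries left out. The count over all genes was 0 in these too, except 844 without control 1, so over the left-out mice it ranged from 0 to 844. The limma median over the members, -0.69, was -0.57 with library-size scaling, which moved the median of all genes to 0.14. It was -0.70 with a pseudocount of 0.5 and -0.84 with trends removed, a setting chosen after seeing the data. It turned to 0.16 with edgeR, 0.096 with DESeq2 and 0.58 without the library of each group highest in muscle markers, and the cause was not tested. The last setting leaves out fragmented, recovered 1 and control 2. The median was -0.058 without that fragmented, recovered mouse alone and 0.012 without that control alone. With a mouse left out the members' median ran from -1.82 to 0.012, and that of the other T and NK cell genes from -1.32 to 0.021. The latter list was at 0.40 without the libraries high in muscle markers.

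Single members changed direction as follows, none of them called in any fit. With edgeR on recovered reads the log2 differences were Trbc2 0.61, Cd3d 0.24, Cd247 0.59, Cd8a 0.24, Cd8b1 0.54, Lck 0.15, Lat 0.21, Cd2 0.46, Cd5 0.36, Cd6 0.44, Ccr7 0.19, Foxp3 0.24 and Nkg7 0.16. With DESeq2 they were Trbc2 0.54, Cd3d 0.17, Cd247 0.52, Cd8a 0.15, Cd8b1 0.46, Lck 0.071, Lat 0.13, Cd2 0.38, Cd5 0.28, Cd6 0.35, Ccr7 0.096, Foxp3 0.15 and Nkg7 0.099. With library-size scaling they were Trbc2 0.029, Cd247 0.022 and Nkg7 0.033. Without the 3 libraries highest in B and plasma cell markers they were Cd3g -0.60, Cd4 0.23, Cd6 0.023, Cd27 -0.14, Thy1 -0.35, Gata3 -0.62 and Gzmb -0.57.
With each mouse left out in turn, 16 members changed direction, over these ranges: Trbc2 -1.16 to 0.68, Cd247 -1.14 to 0.60, Cd8a -2.07 to 0.15, Cd8b1 -1.47 to 0.63, Lat -1.82 to 0.30, Cd2 -1.54 to 0.23, Cd6 -1.86 to 0.55, Foxp3 -1.92 to 0.62, Nkg7 -0.81 to 0.44, Cd3g -0.54 to 1.38, Cd27 -1.02 to 0.65, Thy1 -0.11 to 0.64, Trac -2.06 to 0.049, Cd3d -1.68 to 0.19, Cd4 -1.78 to 0.14 and Il2rb -1.62 to 0.012. Of the ratios, the group difference of these changed sign: Cd4 to Cd8a from -0.39 to 0.29 and Foxp3 to Cd4 from -0.14 to 0.86. 
The groups share replicate numbers, but nothing in the labels pairs the mice. Deviations of same-numbered mice correlated at 0.18, 0.39 and 0.042 across genes. Fragmented, recovered 1 and 2 correlated best with the control of the same number, and fragmented, recovered 3 with control 1 (0.21). Mice can resemble each other in tissue content without being paired, so these correlations cannot decide pairing. With the replicate block, 0 genes and 0 members passed, the lowest adjusted p of a member was 0.37, and 9 members had an unadjusted p under 0.05, where 2676 of all genes (12.0%) did. Depth limits Foxp3, Ctla4, Lef1 and Ncr1, which had 5 reads or fewer in at least 1 library.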
